A study of Drosophila melanogaster with 2 samples.

Results

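Of 7184 reproducible peaks of GFP-tagged CG7556 in Drosophila melanogaster embryos, 325 (4.52%) had their summit, the position of strongest enrichment within a peak, at or just downstream of the start of a protein-coding transcript. These are called downstream summits here. A summit was kept when every coding start within 500 bp of it lay on the same DNA strand and the nearest of those starts lay at or behind it in the direction of transcription. The summits that met the same strand condition but lay ahead of the nearest start, 1486 in number, are called upstream summits and serve for comparison, and 904 further summits had coding starts on both strands nearby. The choice used position alone and no measured signal. The downstream summits sat at 305 distinct starts of 303 genes.

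The data came from whole embryos of both sexes, aged 0 to 24 h, of 1 transgenic fly line that stably makes the CG7556 protein with eGFP at its C-terminal end. Chromatin was sheared by sonication to 200 to 800 bp and precipitated with an antibody against GFP. There were 2 biological replicates of this single group, so no conditions could be compared, and regions are not replicates, so no test was run over them. Peaks from a mixture of all embryonic cell types cannot tell binding in few cells from weak binding in many. The control library was not analysed here. Read depth is unknown because the deposited lists hold no read counts. Each region carries a signal value from the authors, whose scale no source used here names.

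In animals the stretch just after a transcription start belongs to the core promoter and to the beginning of the transcribed gene. Some core promoter elements of flies, such as the downstream promoter element, lie inside the transcribed sequence. RNA polymerase II often pauses shortly after it has begun transcription, and GAGA factor is among the proteins known to act at paused fly promoters. The same stretch holds the untranslated leader of the messenger RNA (the 5' UTR), often the beginning of the first intron, and in genes with short leaders the beginning of the coding sequence. First introns of fly genes are known to hold regulatory elements.

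The downstream summits of highest signal lay in sequence rich in A and T, and the short repeat word GTGTG was present near about as many downstream summits as not. The summits ranked 1, 2, 3, 5 and 6 among them by signal are shown from 14 bp before the summit to 15 bp after it, on the coding strand, to let the centre of the peaks be read. The summit ranked 4, at GstE13, is described further on by its values only. All sequences are RefSeq Release 6, whose coordinates are those of dm6. Capitals mark GTGTG or its reverse complement, and none of these 5 stretches holds either. The place named in brackets is that of the summit base. The first exons of PNPase and CG9399 span 88 and 70 bp, so both stretches run from the first exon into the first intron. Replicate summits lay 9 and 11 bp away at PNPase and 4 and 22 bp away at CG9399, so the placement of these summits is uncertain.
PNPase (chr3R:31404639-31404668, minus strand, 5' UTR): gtacagggcttttattgtaagattttgacc
Ada2b (chr3R:8240019-8240048, minus strand, first intron): tgtttattgattttggtaaataggtagact
ph-p (chrX:2137974-2138003, minus strand, 5' UTR): tcatgagtggtggatatttgaaacattaat
CG9399 (chr3R:9574126-9574155, minus strand, first intron): ataattgtgtaattgtatgtgttttaatac
CG31612 (chr2L:21794932-21794961, minus strand, first intron): tgttttgtgagtacgtttaagaactaataa

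The next set shows stretches of 30 bp with many copies of GTGTG within 100 bp of a downstream summit. They are shown because this word set the downstream summits apart from the upstream ones. Not all chromosome arms were searched for this set, so other stretches may hold as many copies or more. CG2924 held 7 overlapping copies and the other 4 held 5 each. In CG31751 the stretch begins 51 bp after the summit, in CG2924 63 bp and in aop 67 bp after it. The stretch of mrt spans its summit, and that of l(1)G0289 lies just before its summit.
CG2924 (chrX:2270329-2270358, minus strand, first intron): ccaatGTGTGTGTGtccgaGTGTGTGTGTG
CG31751 (chr2L:18677589-18677618, plus strand, first intron): attacccacagctgcgcGTGTGTGTGTGTG
mrt (chr3R:27281434-27281463, minus strand, first intron): GTGTGTGTGTGTGggtgagccgagctgtgg
aop (chr2L:2178550-2178579, minus strand, 5' UTR): gGTGTGTGtttacattgcccgGTGTGTGTG
l(1)G0289 (chrX:10365921-10365950, minus strand, first intron): GTGTGTGTGTGTGttggctgtaaatctggt

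The last set shows the transcription starts of 5 of the 6 ribosomal protein genes with a downstream summit, RpL12 being the other, because their summits lay closer to the start than most. Each runs from 5 bp before the annotated start to 24 bp after it, and capitals mark CTTTT on the coding strand, a run of the pyrimidine-rich kind that is known at the starts of fly ribosomal protein genes.
RpS4 (chr3L:13041796-13041825, plus strand): aaatctgcCTTTTcCTTTTcctgttgtatt
RpL8 (chr3L:2587451-2587480, plus strand): cctCTTTTCTTTTCTTTTcgccccgtttcc
RpL35 (chrX:5672729-5672758, plus strand): cttctttcCTTTTCTTTTcgccgcgtttcc
RpL17 (chrX:6744214-6744243, minus strand): tccagcactagaactgccatttcctttctt
RpL30 (chr2L:19009282-19009311, minus strand): taattggtggtattttctcgcatccccccg

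Summits were far less frequent after coding starts than before them. Downstream summits made up 17.9% of the 1811 summits that met the strand condition, although downstream bases made up 54.8% of the bases where such a summit could lie. The density was 43.4 downstream summits per Mb of eligible sequence, against 241 upstream summits per Mb. Sub-threshold regions are those of the authors' pooled list with no overlap with the optimal list, and of 3756 of them under the strand condition 44.0% were downstream. Put the other way, optimal and sub-threshold regions together numbered 1976 downstream of a start and 3591 upstream of one. The optimal list held 16.4% of the former and 41.4% of the latter. Other pooled regions that overlap an optimal peak were not counted.

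Distances fell into a cluster next to the start and a long tail. The median distance of downstream summits was 153 bp, with quartiles of 71 and 346 bp, against 222 bp for upstream summits on their own side. Of the downstream summits, 61 (18.8%) lay within 50 bp of the start and 121 (37.2%) lay over 250 bp away. There were 114 at 0 to 99 bp, 68 at 100 to 199 bp, 42 at 200 to 299 bp, 51 at 300 to 399 bp and 50 at 400 to 500 bp. Upstream summits were 260 in the nearest of these bins and most frequent in the next, with 396.

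**Figure D1:**
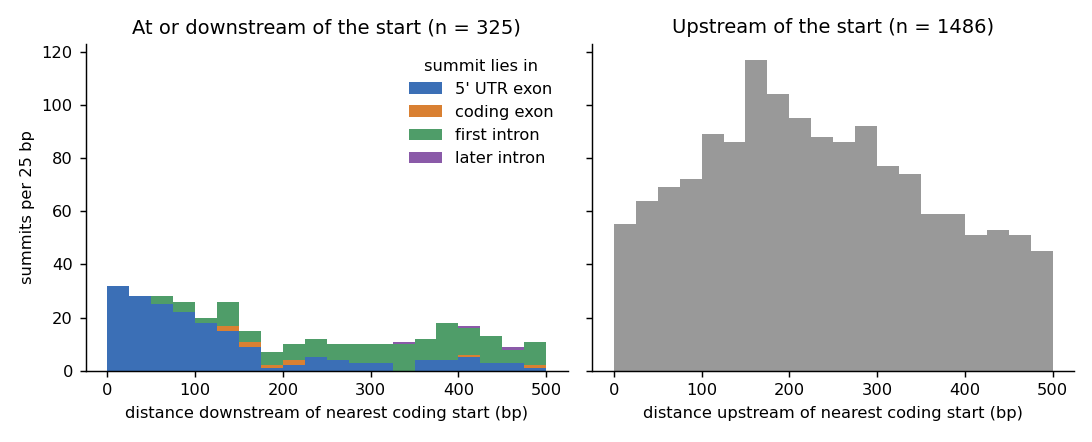
Number of optimal summits per 25 bp against their distance in bp from the nearest coding start, for the 325 downstream summits (left, coloured by where the summit lies in the transcript) and the 1486 upstream summits (right, grey). Downstream summits were most frequent next to the start, where nearly all were in 5' UTR exons, and those in first introns lay further away.

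Within the transcript the downstream summits lay in 5' UTR exons and first introns and seldom in coding sequence. A 5' UTR exon held 187 of them (57.5%, exact 95% binomial interval 52.0 to 63.0), a first intron 126 (38.8%, 33.4 to 44.3), a coding exon 9 (2.77%, 1.27 to 5.19) and a later intron 3 (0.923%). These intervals cover counting error only and treat neighbouring summits as independent, which some are not. Of the eligible downstream bases, 35.3% were in 5' UTR exons, 21.0% in first introns and 40.6% in coding exons. Per Mb of each kind this gave 70.8 summits in 5' UTR exons, 80.1 in first introns and 2.96 in coding exons. Sub-threshold regions under the same positional rule were in 5' UTR exons in 63.5%, in first introns in 25.8% and in coding exons in 9.51% of cases. Of the optimal and sub-threshold regions together, the optimal list held 15.1% in 5' UTR exons, 22.8% in first introns and 5.42% in coding exons. The start codon lay beyond the summit in 281 of 325 cases (86.5%), which included 93 of the 126 summits in first introns.

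The placement changed with distance by more than that of the eligible bases. Those bases come from coding starts as a whole, where leaders and first introns had shorter medians than at downstream-summit starts. At 0 to 99 bp, first introns held 6.14% of the summits and 4.47% of the eligible bases. At 200 to 299 bp the shares were 61.9% of summits and 26.2% of bases, and at 300 to 399 bp they were 76.5% and 27.2%. Coding exons held 4% of the summits at 400 to 500 bp and 50.9% of the bases there. The summits in first introns lay a median of 132 bp past the end of the first exon, and 50 of them lay within 100 bp of it. Their introns had a median length of 971.5 bp and ran from 125 to 19947 bp, the longest being that of CG31612.

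**Figure D2:**
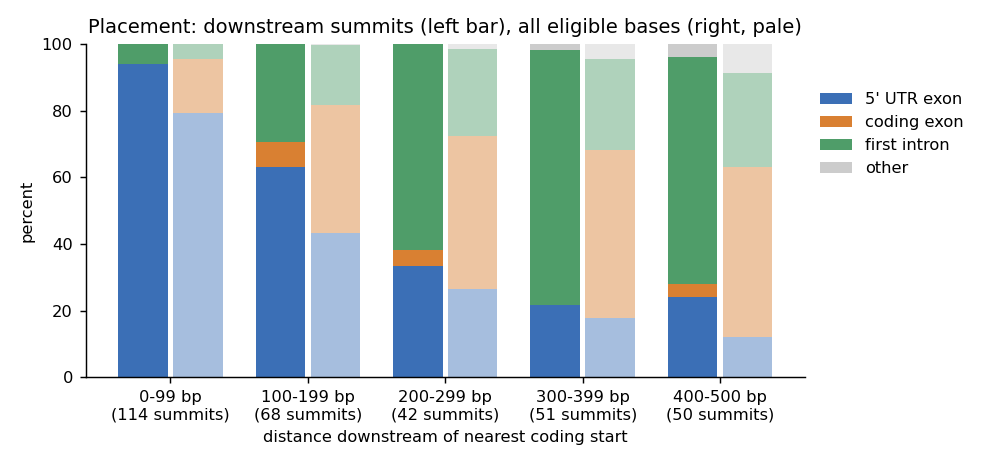
Share in percent of 5' UTR exons, coding exons, first introns and other sequence at 5 distances from the nearest coding start, for the downstream summits (left bar of each pair) and for all eligible bases at that distance (right bar, pale). First introns held more of the summits than of the bases at all 5 distances, by least at 0 to 99 bp (6.14% against 4.47%), and coding exons held fewer.

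The signal of downstream summits was lower than that of upstream ones. Its median was 206.6 with quartiles of 161.9 and 340.2, against a median of 283.5 with quartiles of 190.7 and 535.6 upstream, while the median of all optimal peaks was 243.8. Of the downstream summits, 133 (40.9%) reached the median of the optimal list, against 59.4% of the upstream summits. Among the 200 highest peaks of the list there were 3 downstream summits (0.923% of them) and 87 upstream summits (5.85%). The median was 246.2 in first introns, 185.9 in 5' UTR exons and 163.7 in coding exons. First-intron summits kept the higher median close to the start (254.7 at 0 to 199 bp, n = 27, against 189.5 for 150 summits in 5' UTR exons) and further away (243.4, n = 99, against 170.4 for 37 summits in 5' UTR exons). Signal moved with base composition. Sequence within 100 bp of the summit had a median GC content of 39.30% downstream, against 33.33% upstream. It was 33.6% for summits in first introns and 43.3% in 5' UTR exons. It was 35.3% in the 81 downstream summits with the highest signal and 43.3% in the 81 with the lowest. The part of base composition in the signal was not tested.

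**Figure D3:**
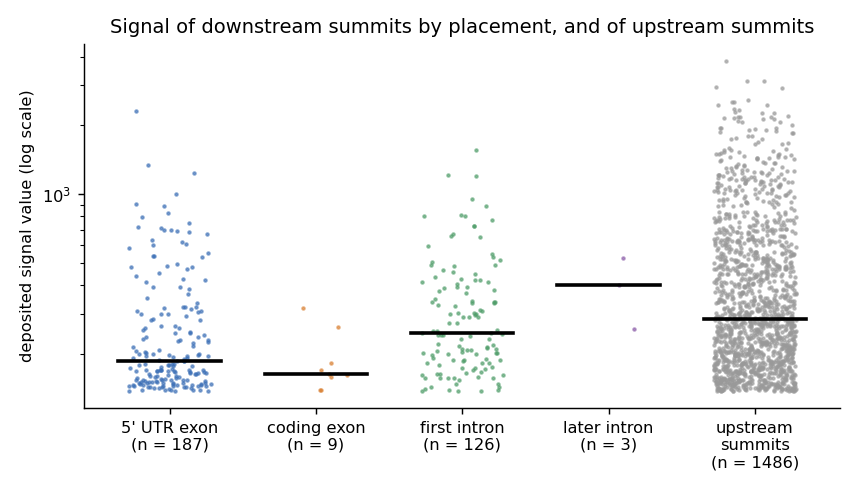
Deposited signal value (log scale) of each downstream summit by where it lies in the transcript, with upstream summits in grey on the right. Black lines are medians, 185.9 in 5' UTR exons, 163.7 in coding exons, 246.2 in first introns and 283.5 upstream, and the groups overlap over most of their range.

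Downstream summits ranked high in both replicates less often than upstream ones. Their signal was also lower, and the groups were not compared at like signal, so the part of signal in this was not tested. Both replicates placed the downstream summits among their own 7184 strongest regions in 196 cases (60.3%), against 76.2% of upstream summits and 73.5% of all optimal peaks. Only one replicate did in 118 (36.3%), against 21.5% of upstream summits, and neither did in 11. The replicate lists, background regions included, hold 29998 and 30000 regions, so a match at any rank is a weak condition for peaks already chosen on both replicates. At any rank, a replicate summit within 100 bp was found for 299 of 325 (92.0%) in both replicate lists, against 93.8% of upstream summits. Replicate 1 matched 311 and replicate 2 also matched 311. Of the 14 without a match in replicate 1, 12 were overlapped by the nearest region of that list, and in replicate 2 this held for all 14. The ratio of replicate 1 to replicate 2 had a median of 0.945 and ran between 0.465 and 1.66 from its 5th to its 95th percentile, and 129 of the 299 (43.1%) were higher in replicate 1. Upstream summits had a median ratio of 1.06 with 59.8% higher in replicate 1, and all optimal peaks a median of 1.08 with 61.9%. Across these 299 downstream summits the replicate signals had a Spearman rank correlation of 0.71, against 0.86 across upstream summits. These are correlations across regions, which share libraries and a selection by signal. The matched summit stayed downstream of the same start in 96.1% of cases in replicate 1 and in 94.5% in replicate 2, and kept its placement in 92.0% in replicate 1 and 91.3% in replicate 2. Where both replicates matched, their summits lay a median of 27 bp apart, with a 90th percentile of 86 bp. Distances of a few bp, and the side of the start at such distances, are therefore uncertain.

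**Figure D4:**
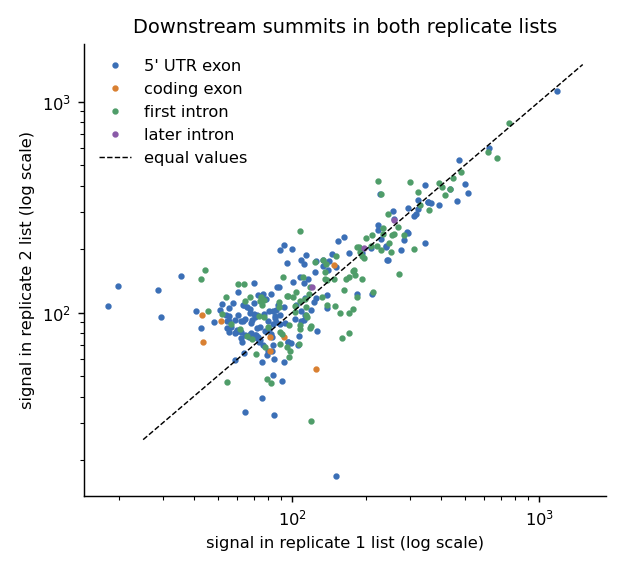
Signal in the replicate 2 list against signal in the replicate 1 list (both log scales) for the 299 downstream summits with a summit within 100 bp in both, coloured by placement, with a dashed line where both are equal. The strongest summits lie near the line, and the spread around it is wider at low signal.

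PNPase, which encodes polynucleotide phosphorylase, an exonuclease that acts on mitochondrial RNA, had the strongest downstream summit. Its signal was 2306 (rank 29 of the optimal list), and it was 1182 in replicate 1 and 1129 in replicate 2. The summit lies in the 5' UTR, 86 bp after one start and 86 bp before the next, the only downstream summit that was equally far from a start on each side. Its placement as downstream rests on counting such a tie for the start behind it. Ada2b, which encodes a subunit of the histone acetyltransferase complex SAGA, came next with 1559 at 481 bp in its first intron. Its replicate values were 756.3 and 792.1. A further Ada2b summit in the same intron, 262 bp from the start, had 727.3.

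Among the other 8 of the 10 strongest, signal ran from 888.2 to 1340. The gene of the third, ph-p, encodes a subunit of Polycomb repressive complex 1. Its summit, 382 bp into the 5' UTR, had 1340 overall and 750.1 in replicate 2. The nearest replicate 1 summit lay 101 bp away, just beyond the limit for a match, with 845.9. The neighbouring copy ph-d had a downstream summit of 306.2 at 174 bp. Both genes are near-identical copies in tandem, so reads may have been split or misplaced between them, and their values are uncertain. GstE13, a glutathione S-transferase gene, had 1237 at 67 bp (summit at position 9122192 of arm 2R), with 624.7 in replicate 1 and 602.8 in replicate 2. CG9399 had 1211 at 70 bp in its first intron, the highest among summits that also had an upstream companion. CG31612 had 1199 at 500 bp, the longest distance allowed. The next summits out, at Fem-1 and Dscam3 at 502 bp, had 201.5 and 137.6 and fell outside the rule.

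CHES-1-like, which encodes a forkhead transcription factor, had 1001 at 275 bp in its 5' UTR (summit at position 7709110 of X), with 473.5 in replicate 1 and 529.6 in replicate 2. The summit of scramb2, a phospholipid scramblase family gene, was in the first intron with 953.3 at 368 bp (position 3046444 of 3L). Eip75B, which encodes an ecdysone-induced nuclear receptor, had 903.7 at 8 bp from a start (position 17999813 of 3L), with 499.8 in replicate 1 and 406.6 in replicate 2. Ufsp1, a gene for a protease of the ubiquitin-like protein UFM1, had 888.2 at 10 bp (position 6975123 of 2R). At the 9 of these 10 with a match in both lists, the replicate values differed by less than 1.5-fold. The summits closest to the start were those of CG2811 (481.9) and Pal2 (427.1), both at the annotated start base, and the next on the other side was that of Sobp, 1 bp upstream with 764.9. Replicate summits lay 15 and 31 bp from that of Eip75B and 13 and 11 bp from that of Ufsp1. They lay 6 and 19 bp from that of CG2811 and 3 bp in each replicate from that of Pal2. These shifts exceed the distances to the start, so the side of the start is uncertain at these genes.

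The few summits in coding sequence and later introns were weaker or belonged to genes with short first introns. In coding exons the highest were CG44812 with 317.3, Kap3, a gene for a kinesin-associated protein, with 262.2, and CG43116 with 181.7. The CG44812 summit also lies within the span of a coding gene on the opposite strand, and to which gene it belongs was not tested. The Kap3 start is annotated with a 5' UTR of 0 bp, so its placement rests on a transcript model with no leader. At Kap3 and CG43116 the region overlaps or equals that of a stronger first-intron summit of the same gene, with 515.2 and 503.4. The coding-exon summit of Kap3 had 125.1 in replicate 1 and 53.78 in replicate 2. In later introns lay Sxl, the master switch gene of sex determination, with 524.8 at 418 bp, pAbp, the gene of the poly(A)-binding protein, with 399.6 at 471 bp, and Archease, whose human counterpart is a cofactor of tRNA ligation, with 257.4 at 337 bp. The first introns of these 3 genes span 62, 71 and 66 bp. More than 1 downstream summit was found in 27 genes. At least 3 were found in 2 genes. In one of these, milt, which encodes an adaptor that links mitochondria to kinesin, the summits had 307.7 and 185.3 at 1 start and 137.7 at another.

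Genes with downstream summits had longer leaders, longer first introns and more alternative starts than coding genes as a whole. The 5' UTR had a median of 323 bp for the 305 downstream-summit starts, 266 bp for the 1295 starts with an upstream summit and 145 bp over 14770 one-strand coding starts. The first intron had a median of 887.5, 932 and 275 bp in the same order of groups. The start codon lay a median of 863, 510 and 185 bp past the start. Several starts were annotated for the gene at 76.7% of downstream-summit starts, 60.7% of upstream-summit starts and 49.4% of all. A longer leader or first intron leaves more 5' UTR or intron sequence near the start. The part of this in the placement was not tested, because the eligible bases come from coding starts as a whole.

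Some downstream summits lay between alternative starts. A further start of the same gene lay ahead of the summit within 500 bp for 65 of 325 (20.0%), of which 43 were in 5' UTR exons and 22 in first introns. A start behind the summit was found for 6.8% of upstream summits. Another start ahead was found for 11.1% of all one-strand starts, counted from the start and not from a summit. That span differs from the one used for summits, so the shares are not strictly comparable. The 65 summits had a median signal of 293.7, and the 260 others 196.1. They lay a median of 85 bp from the start behind and 204 bp from the start ahead, so in these cases downstream of one start also means upstream of another.

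A companion summit upstream of the same start was the exception. A total of 37 downstream summits (11.4%) had an optimal summit within 500 bp upstream of their start. The gap between both summits had a median of 212 bp and was never under 199 bp, and 25 of the gaps were 218 bp or less. Whether the peak list can hold summits closer together than this was not tested, so nearer companions may have gone unlisted. In 30 of the 37 pairs both summits lay in 1 region of overlapping peaks, and with only the highest summit of each such region kept, the share with a companion was 2.18%. The upstream companion was the higher of the pair in 21 of 37, with a median ratio of companion to downstream summit of 1.20. At CG9399 the downstream summit had 1211 and its companion 228.6. At brwl the order was the other way, with 694.0 downstream and 1895 in the companion. At gro, the gene of the co-repressor Groucho, the values were 246.4 downstream and 929.1 in the companion. The 288 downstream summits with no companion had a median signal of 201.4, and the 37 with one had 298.3. The strongest with none was PNPase.

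The downstream summits of ribosomal protein genes lay close to the start. Over all 13945 protein-coding genes, 303 (2.17%) had a downstream summit. Of 91 cytoplasmic ribosomal protein genes, 6 (6.59%) had one, and 20 (22.0%) had an upstream summit, against 8.87% of all genes. The 6 summits lay between 3 and 23 bp from the start, in the 5' UTR, while 31 (9.54%) of all downstream summits lay within 23 bp of a start. The lower limit follows from the rule, and 23 bp is the longest distance of these same 6, so this span was not chosen independently. The 25 upstream summits at ribosomal protein starts lay at a median of 52 bp, against 222 bp over all upstream summits. Within 23 bp before the start lay 5 of these 25, against 54 of all 1486 upstream summits. Summits of ribosomal protein genes thus lay close to the start on both sides. RpL30 had 486.1 at 17 bp, RpL17 314.8 at 19 bp and RpS4 307.0 at 21 bp. The replicate 1 summit of RpL17 lay 57 bp away from this position, and that of replicate 2 lay at the same base. RpS4 had 92.86 in replicate 1 and 208.1 in replicate 2, while RpL30 had 223.5 and 259.4. The remaining 3, RpL8, RpL12 and RpL35, had between 146.9 and 198.5. CTTTT, as printed above for RpS4, RpL8 and RpL35, was found from 5 bp before to 24 bp after 3 of the 6 starts. It was found at 46.3% of 95 one-strand ribosomal protein starts, at 5.69% of the other downstream-summit starts and at 4.85% of all one-strand starts. For 3 of the 6 a further start lay ahead within 500 bp.

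The other gene lists held 0 to 3 genes with a downstream summit, too few to set beside the background share. Among 20 insulator and promoter-binding proteins there were 3. Trl, the gene of GAGA factor, had 582.5 at 125 bp with 227.3 in replicate 1 and 364.7 in replicate 2. The others were lolal, which encodes a BTB-domain partner of GAGA factor, with 386.7 at 49 bp, and BEAF-32, which encodes a boundary-element protein, with 139.7 at 170 bp in coding sequence. BEAF-32 had 43.83 in replicate 1 and 72.49 in replicate 2, and a higher companion of 213.6 that lay 31 bp upstream of the start. Its 139.7 is close to the lowest signal of the optimal list, 137.1. Among 26 Polycomb and trithorax genes, the 2 were ph-p and ph-d. Among 23 ecdysone and nuclear receptor genes, Hr39 had 164.1 besides Eip75B. Among 19 Notch and E(spl) genes, the 2 were gro and, with 169.6, mib1, which encodes a ubiquitin ligase for Notch ligands. Among 28 Wnt and Hedgehog pathway genes, the 2 were fz, a Wnt receptor gene, with 150.6 and arr, a Wnt co-receptor gene, with 139.4. The value of arr is also close to the lowest of the optimal list.

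Single genes came from 5 further lists. The cell-cycle list of 27 genes gave Dp, the gene of the E2F partner, with 376.6 at 487 bp in the first intron. Dp had 270.1 in replicate 1 and 152.3 in replicate 2, and a higher companion of 564.2 that lay 293 bp upstream of the start. The oxidative phosphorylation list of 86 genes gave COX7AL2 with 365.0. DnaJ-1, a heat-shock co-chaperone gene from a list of 24, had 200.1. From a list of 22 EGFR and Ras genes, aop, which encodes a repressor in the EGFR pathway, had 155.7. From a list of 53 translation factors, eIF4A, the gene of a translation initiation helicase, had 153.9. fz and eIF4A had no replicate 2 summit within 100 bp. No downstream summit was found at 73 mitochondrial ribosomal protein, 48 proteasome, 41 Mediator and TFIID, 32 aminoacyl-tRNA synthetase, 25 axis patterning, 24 neural regulator, 23 muscle and mesoderm, 18 Dpp and BMP or 8 Hox genes. With a share of 2.17% over all protein-coding genes, lists of these sizes are too small to show an absence. Upstream summits were found in each of these lists, at 4.11% (mitochondrial ribosomal protein) to 29.2% (neural regulator) of the genes, against 8.87% of all.

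The word GTGTG was more frequent around downstream summits than around upstream ones. It was searched on both strands within 100 bp of the summit, and was present in 51.1% of downstream windows against 27.7% of upstream windows and 30.3% of all optimal windows. It was in 49.4% of windows of sub-threshold regions downstream of a start and in 37.0% of the windows from 0 to 200 bp after 14770 one-strand starts. On the coding strand, as printed above for CG2924 and mrt, it was in 34.8% of downstream windows against 13.7% of upstream ones. Sub-threshold downstream windows had it there in 32.9% and all start windows in 22.4%. At least 3 copies were found in 13.2% of downstream against 2.62% of upstream windows. The shares were 14.3% in sub-threshold downstream windows and 6.24% in all start windows. Downstream summits with the word had a median signal of 194.4, and those with none 232.5. The share was 56.1% of downstream windows at 0 to 99 bp and 50% at 400 to 500 bp, against 41.9% and 20.5% of upstream windows at these distances. The longer word CACACA, which overlaps the reverse complement of GTGTG, was in 28.9% of downstream and 12.6% of upstream windows. It was in 28.7% of sub-threshold downstream windows. The hexamer ACACAC with its reverse complement showed the same on either set of arms taken alone, with 28.6% against 9.69% on 2L, 2R and X and 27.9% against 8.44% on 3L, 3R and 4. A word in a window describes the sequence only, and what binds it was not tested.

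**Figure D5:**
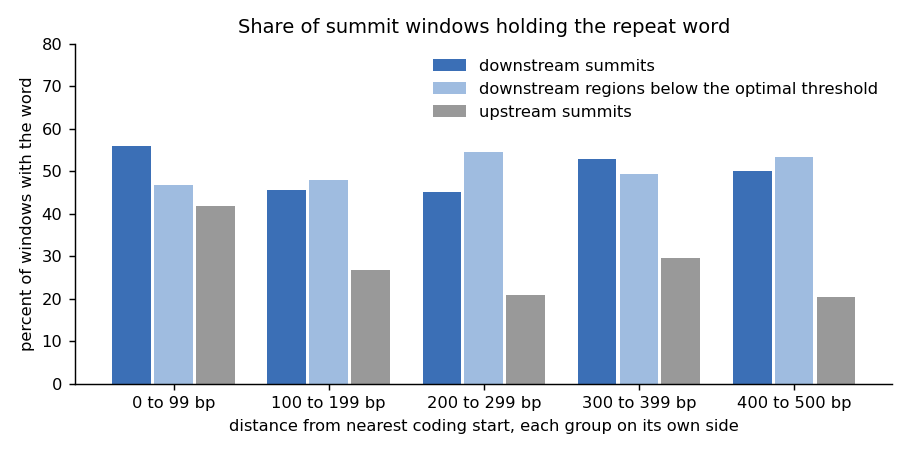
Share in percent of the windows within 100 bp of the summit that hold the word GTGTG on either strand, by distance from the nearest coding start on the group's own side, for downstream summits (dark blue), downstream regions below the optimal threshold (pale blue) and upstream summits (grey). Both downstream groups stand at 45.2 to 56.1% in all 5 bins, against 20.5 to 41.9% for upstream summits.

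Words of known promoter factors were mostly as frequent around downstream summits as around upstream ones. GAGAG, the word of GAGA factor, was in 22.5% of downstream windows, 24.3% of upstream windows and 22.3% of all start windows. CGATA, the word of BEAF-32, was in 24.9%, 27.4% and 26.5% of the same 3 groups. TATCGATA, the DNA replication-related element, which contains CGATA, was in 2.15%, 3.43% and 0.894%. CAGGTA, the word of the early activator Zelda, was in 3.08%, 3.43% and 4.92%, and GGTCACAC, the word of M1BP, in 2.15%, 1.55% and 2.14%. The E-box CAGCTG was in 11.7%, 9.02% and 10.1%, and CACGTG was in 2.77%, 1.75% and 3.07%. CGGACG, known as the pause button, was in 7.08% of downstream windows, 1.68% of upstream windows and 6.78% of all start windows, so the downstream share was close to that of start-proximal sequence. TATAAA was in 24.6%, 40.8% and 17.1%. The remaining words are runs and simple repeats. TTCTTT was in 27.7%, 27.4% and 20.7%, AAAAAAAA in 16.6%, 13.9% and 10.7%, AGCAGC in 12.6%, 8.28% and 18.2%, and GCGCGC in 2.77%, 2.62% and 4.14%. TCAGTT, an initiator word, was in 10.8%, 12.7% and 19.7%.

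The starts themselves seldom carried the core promoter words at their usual places. TATAA beginning 45 to 15 bp before the start was found at 2.95% of the 305 downstream-summit starts, against 6.95% of the upstream-summit starts and 12.6% of all one-strand starts. TCAGT beginning at position -4 to 0 was found at 4.92%, 9.58% and 7.76%. A downstream-promoter-element word (AGAC or GGAC or AGTC or GGTC, beginning 26 to 30 bp after the start) was found at 11.5%, 10.8% and 8.65%. No word of these 3 kinds was found at 82.0%, 75% and 73.8%. The 114 starts with a downstream summit within 100 bp had TATAA in 3.51%, TCAGT in 0.877% (1 start) and a downstream-promoter-element word in 8.77%. These searches used the annotated start base, and a start annotated a few bases away would be missed.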

How the data were processed

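CG7556-eGFP was immunoprecipitated from 2 embryo samples with anti-GFP, per the labels. The authors made region lists from each replicate with a control, a list from pooled replicates, and an optimal list past IDR (irreproducible discovery rate) thresholding, per the deposited description files. The sources used here name no aligner, caller, version or threshold. The deposited signal values have no stated scale and served to rank and describe regions of 1 list, and to set replicate values side by side at matched summits. A summit is the region start plus the deposited offset, in dm6 on 6 arms, 1-based.

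Starts, exons and introns came from Ensembl release 115 (BDGP 6.54), with 13945 protein-coding genes, and sequence from RefSeq Release 6. Placement used the transcripts beginning at the nearest start, in the order 5' UTR exon, coding exon, first intron, later intron. Eligible bases lie within 500 bp of a coding start, with no coding start of the other strand within 500 bp. Sub-threshold regions are pooled regions that overlap no optimal peak. Replicate summits were matched within 100 bp. The 16 words, 20 gene lists and the rule for named genes were chosen with earlier results of these data known, as was the choice of region. Named genes are those of the 10 highest summits, the 3 highest of each placement and of each list, genes with at least 3 summits, and the extremes of distance and of companion status. Ada2b's further summit, brwl, Pal2, Sobp, Fem-1, Dscam3, the CTTTT and GTGTG examples and the shares of CTTTT were chosen after values were seen. So were the first-intron summits of Kap3 and CG43116. Intervals are exact binomial (Clopper-Pearson). Python 3.11.15 with numpy and scipy was used, and the positional code and word search were tested on simulated data. One gene that meets the rule for named genes is not reported here.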

Additional observations from a re-analysis of the deposited data

How the results depend on the processing

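Of 89 values recomputed for 12 results, 60 stayed within 1.5 times (counts), within the exact 95% interval (shares) or within the SD between the single-replicate lists (medians and ratios). That SD comes from the same single-replicate values that are then judged by it. A main value midway between them always counts as unchanged, so for medians and ratios the agreement of these lists shows little. The alternatives for the share with a start ahead and the GTGTG share were chosen after seeing the data. RefSeq coding starts, also tried after seeing the data, include all 19253 Ensembl ones among 19254, so that alternative could test nothing and is not counted. With the 7184 strongest regions of 1 replicate in place of the optimal list, there were 283 to 430 downstream summits, a downstream share of 16.2 to 21.8%, a median distance of 144 to 176 bp, a median signal of 99.9 to 117, a GAGAG share of 22.3 to 27.7% and a GTGTG share of 42.0 to 52.3%. Of these, 77.0% (replicate 1) and 59.3% (replicate 2) lay within 100 bp of a downstream summit of the optimal list.

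Keeping optimal peaks at or above the list's median signal left 133 downstream summits, a downstream share of 13.1%, a first intron share of 48.1%, a 5' UTR share of 48.1%, a median distance of 180 bp, a median signal of 411, a ratio to upstream of 0.867, a GAGAG share of 17.3%, a start ahead in 30.1% and a GTGTG share of 44.4%. A 200 bp window gave a downstream share of 22.6%, a first intron share of 14.2%, a 5' UTR share of 82.3%, a median distance of 70.0 bp and an upstream companion in 28.4%. Of its 282 summits, 97 had coding starts on both strands within 500 bp, and 52 of these had a companion. The 5'-most start of each gene gave 22.8% downstream, a median distance of 179 bp, companions in 7.93% and a start ahead in 0.345%, since it removes alternative starts. With 1 summit per merged region, companions fell to 2.18%. Windows of 50 bp gave 11.4% for GAGAG and 28% for GTGTG. Apart from the changes that follow from a shorter window, fewer starts or fewer summits, the cause was not tested. No paired analysis was possible because there is only 1 group.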

Other observations

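Non-coding transcripts also began near some of the downstream summits. A non-coding start lay within 500 bp on the opposite strand for 17 of 325 and on the same strand for 2. A coding gene on the opposite strand spanned the summit in 19 cases. The downstream summits were spread over the arms as 68 on 2L, 67 on 2R, 54 on 3L, 67 on 3R, 1 on 4 and 68 on X, and they made up 15.4% (3L) to 20.3% (2L) of the summits that met the strand condition on each arm. The placement differed between transcripts that begin at the same start for 19 of the 325, of which the 5' UTR was given precedence where it was one of them. Of the downstream summits, 29 (8.92%) were in regions listed with several summits, against 15.1% of upstream summits.

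Depth was unknown and limits were set by the number of summits: coding exons held 9 and later introns 3, so values for these classes rest on few regions. Signal values of the optimal list come from both replicates together and have no error of their own. The control was not analysed here, and regions enriched by the antibody with no tagged protein cannot be told apart from the others.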
